A study of Mus musculus with 12 samples.

Results

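The transcripts described here are those of 10 genes of hepatic de novo lipogenesis, the synthesis of fatty acids from sugar and acetate: Acly, Acss2, Acaca, Acacb, Fasn, Elovl6, Scd1, Me1, Thrsp and Pnpla3. They were found by gene symbol among the 38926 symbols counted in each liver, and all 10 were present and were among the 14488 genes with enough reads for a test. Liver RNA came from mice aged 12 weeks on a mixed 129Ola/C57BL6 background, either wild-type or Rev-erbα-/-, the latter carrying a whole-body loss of Nr1d1, the gene for the clock repressor REV-ERBα. Wild-type and Rev-erbα-/- livers were taken at ZT8, in the light phase, and at ZT20, in the dark phase (ZT is the time in hours after lights on), with 3 mice in each of the 4 groups and 1 library a mouse. The Rev-erbα-/- mice were bred from heterozygous pairs. All mice were kept in light and dark phases of equal length with food always at hand, and no group received a treatment.

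Acetyl-CoA for fatty acid synthesis is made in the cytosol from citrate by ATP citrate lyase (Acly) and from acetate by acetyl-CoA synthetase (Acss2). Acetyl-CoA carboxylases (Acaca, Acacb) turn it into malonyl-CoA, fatty acid synthase (Fasn) joins these units with NADPH, part of it from malic enzyme (Me1), and an elongase (Elovl6) and a desaturase (Scd1) shape the product. In liver these genes are known as targets of the insulin-driven factor SREBP-1c and the sugar sensor ChREBP, and mice feed mostly in the dark phase. Thrsp encodes the lipogenic nuclear protein Spot 14, and Pnpla3 a lipid droplet protein that is induced by feeding.

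Between 17641809 and 26060192 reads a library were assigned to genes. The deposited values are read counts, given here as CPM, that is counts scaled to each library's reads on tested genes and to edgeR's TMM factor, which ran from 0.942 to 1.04, so that 3 counts were worth 0.117 to 0.167 CPM. Nr1d1 itself was counted at 129, 96.2 and 75.3 CPM in wild-type and at 63, 71.9 and 80.6 CPM in Rev-erbα-/- livers at ZT8, and at 2.28, 1.86 and 2.15 CPM and 3.57, 2.96 and 2.09 CPM at ZT20. Reads were thus still assigned to Nr1d1 in Rev-erbα-/- livers, and as the deleted exons are not named in the sources used here, these counts do not check the genotype. By quantitative PCR and by antibody, the study reported both the mRNA and the protein absent from Rev-erbα-/- livers. Among the wild-type ZT8 libraries, 2 stood apart: the acute-phase transcript Saa1, singled out after its values were seen, was at 4972 CPM in mouse 2 and 6489 CPM in mouse 3, and between 21.2 and 96.8 CPM in the other 10 livers. The 6 hepatocyte markers summed to 57021 CPM or more in every liver. The 5 adipocyte markers and the 4 exocrine pancreas markers, of tissues that also express lipogenic or lipase genes, summed to at most 0.179 and 0.208 CPM, with Lep at 0 in all livers. In whole liver, fewer cells of a type and less RNA per cell cannot be told apart.

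The stretches before the gene starts show what these transcripts do and do not share. RefSeq promoter windows (GRCm38.p6, both strands searched) were found for 9 of the 10 genes, all but Scd1, and the 250 bases before each start were used. The CCAAT box, spelled CCAAT, was in 5 of the 9 windows (Fasn, Acacb, Thrsp, Pnpla3 and Acss2) and in 34.5% of 27025 windows of the same length. The GC box, spelled GGGCGG, was in 4 (Acly, Me1, Pnpla3 and Acss2) and in 32.9% of all windows. The E-box CACGTG (6.05% of all windows), the sterol element TCACNCCAC (1.04%) and the REV-ERB element TAGGTCA (2.27%) were in 0 of the 9, which says only that these letters are not in these windows. The windows of Acaca and Acacb lie wholly inside the annotated gene, at an internal start. Those of Thrsp, Acss2, Me1 and Elovl6 lie across the annotated start of their gene, so part of each is inside the gene. The 3 windows chosen are shown with the CCAAT and GC boxes of either strand in capitals: that of Pnpla3, the transcript with the largest rise, with both boxes (chr15:84167566-84167815, plus strand); that of Acly, whose rise was nearly equal in both genotypes, with GC boxes only (chr11:100528001-100528250, minus strand); and that of Fasn, with CCAAT boxes only, 2 of which overlap on opposite strands (chr11:120824548-120824797, minus strand).
Pnpla3: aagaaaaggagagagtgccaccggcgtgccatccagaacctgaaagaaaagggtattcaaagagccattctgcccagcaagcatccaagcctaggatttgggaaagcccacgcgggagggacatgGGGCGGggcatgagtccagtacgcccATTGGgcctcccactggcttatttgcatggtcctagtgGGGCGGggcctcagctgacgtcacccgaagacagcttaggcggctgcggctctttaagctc
Acly: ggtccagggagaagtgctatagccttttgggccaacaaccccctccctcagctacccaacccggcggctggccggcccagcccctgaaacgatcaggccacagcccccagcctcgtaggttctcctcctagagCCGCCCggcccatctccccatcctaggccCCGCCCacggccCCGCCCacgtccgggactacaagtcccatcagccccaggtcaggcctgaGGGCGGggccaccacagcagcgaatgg
Fasn: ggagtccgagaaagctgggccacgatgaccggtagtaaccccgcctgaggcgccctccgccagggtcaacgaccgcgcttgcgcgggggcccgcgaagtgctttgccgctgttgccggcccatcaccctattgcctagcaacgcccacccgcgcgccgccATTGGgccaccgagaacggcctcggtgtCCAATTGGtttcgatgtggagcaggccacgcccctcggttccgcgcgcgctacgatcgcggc

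The 10 transcripts spanned a wide range of levels. Levels are given per kb of exon, with the exons of all annotated transcripts of a gene merged. This length was 17074 bases for Acaca, 10163 for Acss2 and 1548 for Pnpla3. It can exceed the length of the transcript made in liver, so the order of genes is approximate. On this scale Scd1 was highest in each group, at 443 ± 226 CPM per kb (mean ± SD, n = 3) in wild-type at ZT8 and 2584 ± 673 at ZT20. Thrsp followed at 265 ± 81.9 and 455 ± 207 CPM per kb, and Acly at 53.6 ± 21.1 and 192 ± 52.4. In wild-type at ZT20 the order from high to low was Scd1, Thrsp, Acly, Fasn, Acss2, Me1, Acacb, Elovl6, Pnpla3 and Acaca, the last at 4.44 ± 0.976 CPM per kb. Scd1 was clear of Thrsp in this group, and each of the other neighbours in the order overlapped between mice. Together, the 10 genes took 0.4 ± 0.184% of all assigned reads in wild-type and 0.593 ± 0.16% in Rev-erbα-/- livers at ZT8, and 1.69 ± 0.448% and 1.29 ± 0.279% at ZT20. Scd1 alone accounted for 54.5% of these reads in wild-type at ZT8 and 73.2% at ZT20, against 63.6% and 66.3% in Rev-erbα-/- livers.

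**Figure D1:**
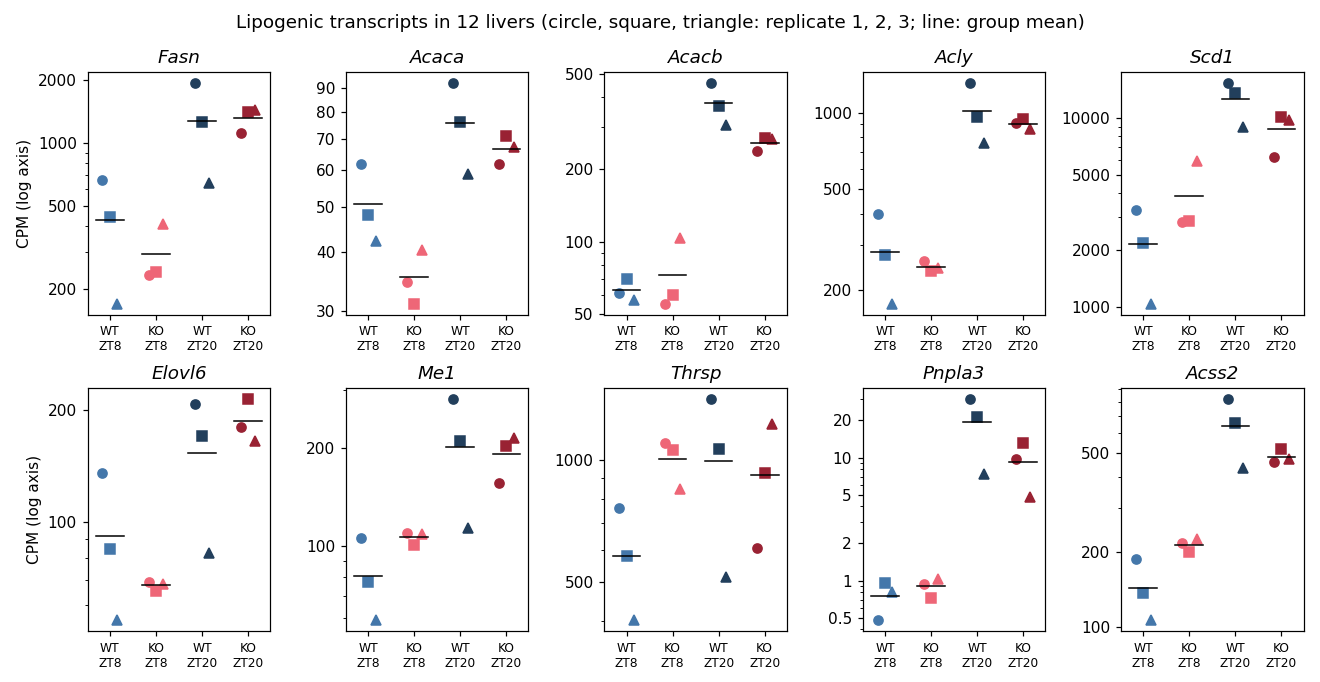
Each panel shows 1 transcript, with CPM on a log axis for the 12 livers, where WT is wild-type, KO is Rev-erbα-/-, symbols are mice 1, 2 and 3 of a group, and the black line is the group mean. Pnpla3 lay below 1.1 CPM in all 6 ZT8 livers and between 4.8 and 29.8 CPM at ZT20, whereas Thrsp at ZT20 lay within or around its ZT8 range.

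The change from ZT8 to ZT20 was the main difference in this set. Adjusted p-values throughout are from edgeR's quasi-likelihood test over all 12 livers, with the Benjamini-Hochberg adjustment over 14488 genes and a threshold of 0.05. In wild-type livers 7 of the 10 transcripts rose (Pnpla3, Acacb, Scd1, Acss2, Acly, Me1 and Acaca) and 0 fell, where 13.8% of all tested genes were higher and 13.9% were lower at ZT20. In Rev-erbα-/- livers 7 of 10 also rose (Pnpla3, Fasn, Acly, Acacb, Elovl6, Acss2 and Acaca) and 0 fell, where 8.79% of all genes were higher and 8.67% lower. Acaca, Acacb, Acly, Acss2 and Pnpla3 passed in both genotypes. Every ZT20 liver was above every ZT8 liver for 6 of the 10 transcripts in wild-type (21.5% of all genes) and for 9 of 10 in Rev-erbα-/- (17.5% of all genes), where the exception was Thrsp. The median change of the 10 was 1.71 on the log2 scale in wild-type and 1.32 in Rev-erbα-/-, while that of all tested genes was -0.000206 and 0.00635. Hepatocyte markers also moved with time: their sum was 57021 to 79317 CPM in wild-type at ZT8 and 95031 to 102680 CPM at ZT20, and 62509 to 88360 CPM and 83138 to 93195 CPM in Rev-erbα-/- livers. Alb was the largest part of these sums, with group means of 41469 CPM at ZT8 and 73105 CPM at ZT20 in wild-type. In Rev-erbα-/- livers its means were 48471 and 62718 CPM. Of these 6 markers, 3 rose (Alb, Tat and Ttr) and 1 fell (Cyp2e1) in wild-type. In Rev-erbα-/- livers 2 rose (Tat and Serpina1c) and 1 fell (Cyp2e1). The 5 Kupffer cell and macrophage markers summed to 312 to 489 CPM at ZT8 and 268 to 326 CPM at ZT20 in wild-type, where Cd5l and Cd68 fell (log2 -0.85 and -0.58, adjusted p = 0.00762 and 0.00422). In Rev-erbα-/- they summed to 270 to 347 CPM and 311 to 364 CPM, and 0 of the 5 passed the test. The 4 cholangiocyte markers summed to 4.83 to 7.44 CPM at ZT8 and 11.9 to 12.3 CPM at ZT20 in wild-type, where Krt19 and Sox9 rose (2.55-fold and 2.12-fold, adjusted p = 0.0172 and 0.000658), and to 9.97 to 15.5 CPM and 13.5 to 19.2 CPM in Rev-erbα-/-, where Krt19 rose (2.3-fold, adjusted p = 0.0398). The 4 stellate cell markers summed to 221 to 261 CPM at ZT8 and 205 to 268 CPM at ZT20 in wild-type. In Rev-erbα-/- they summed to 225 to 245 CPM and 228 to 288 CPM. In wild-type Reln fell (log2 -0.30, adjusted p = 0.0468), while Des, Lrat and Dcn had log2 changes of 0.26, 0.21 and 0.14 that did not pass. In Rev-erbα-/- Des rose (log2 0.79, adjusted p = 0.0139), while Lrat, Reln and Dcn had changes of 0.27, 0.24 and 0.085 that did not pass. The part of cell makeup in the changes of the lipogenic transcripts was not tested.

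Of the enzymes that supply acetyl-CoA, Acly (chr11:100476353-100528000, minus strand, mm10) was at 399, 274 and 177 CPM in wild-type mice 1, 2 and 3 and at 259.7, 237 and 244 CPM in the Rev-erbα-/- mice at ZT8. By ZT20 the values were 1309.6, 965 and 762 CPM and 907, 944 and 862 CPM, with each ZT20 liver above each ZT8 liver and the Rev-erbα-/- values inside the wild-type range at both times. Its rise was 3.58-fold in wild-type (log2 1.84 ± 0.27 SE, adjusted p = 0.000665) and 3.66-fold in Rev-erbα-/- livers (log2 1.87 ± 0.27, adjusted p = 0.00124). The 2 rises differed by a log2 value of 0.03, with a 95% interval of -0.79 to 0.86.

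Acss2 (chr2:155517948-155585724, plus strand, mm10) was at 187, 136 and 106 CPM in wild-type and 216, 199 and 226 CPM in Rev-erbα-/- livers at ZT8. The ZT20 livers had 819.5, 656 and 435 CPM and 458, 516 and 471 CPM. The Rev-erbα-/- livers were therefore all above the wild-type livers at ZT8, and at ZT20 they lay inside the wild-type range. The rise was 4.44-fold in wild-type (log2 2.15 ± 0.24, adjusted p = 8.49e-05) and 2.25-fold in Rev-erbα-/- (log2 1.17 ± 0.23, adjusted p = 0.00645). The difference between these rises, -0.98 on the log2 scale, had an unadjusted p of 0.0124 and an adjusted p of 0.118 in edgeR, and 0.0123 in DESeq2. Without wild-type ZT8 mouse 1 or wild-type ZT20 mouse 3 the edgeR test passed, with differences of -1.21 and -1.18 (adjusted p = 0.0301 and 0.0177). Strand was ignored in counting, and Acss2 shares 3.89% of its exon bases with Gss, 3.3% with its antisense gene Acss2os and 1.94% with Ggt7.

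Of the acetyl-CoA carboxylases, Acaca (chr11:84129672-84401651, plus strand, mm10), which makes the malonyl-CoA for synthesis in the cytosol, was at 61.8, 48.1 and 42.3 CPM in wild-type and 34.5, 31.1 and 40.5 CPM in Rev-erbα-/- livers at ZT8. At ZT20 it was at 92.3, 75.9 and 59 CPM and 61.9, 70.9 and 67.4 CPM. All Rev-erbα-/- values lay below the wild-type values at ZT8, but not at ZT20. Acaca rose 1.49-fold in wild-type (log2 0.58 ± 0.17, adjusted p = 0.0303), with mouse 3 at ZT20 below mouse 1 at ZT8, and 1.88-fold in Rev-erbα-/- without overlap (log2 0.91 ± 0.18, adjusted p = 0.00524). The wild-type call was the less firm of the pair: it was lost without wild-type ZT8 mouse 2 or 3, wild-type ZT20 mouse 1 or 2, or Rev-erbα-/- ZT8 mouse 1, where the log2 change was 0.54, 0.46, 0.41, 0.58 and 0.57. It was also lost with no filter on low counts (adjusted p = 0.0883 in edgeR) and in a fit of only the compared groups (adjusted p = 0.106).

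Acacb (chr5:114146535-114250761, plus strand, mm10) encodes the carboxylase at the mitochondrial surface, whose malonyl-CoA restrains fatty acid entry into mitochondria. It was at 61.1, 69.5 and 57.2 CPM in wild-type and 55, 60.1 and 103 CPM in Rev-erbα-/- livers at ZT8. At ZT20 it reached 459.8, 368 and 306 CPM in wild-type and 238, 270.3 and 268 CPM in Rev-erbα-/-, so that the lowest wild-type liver was above the highest Rev-erbα-/- liver. The rise was 6.03-fold in wild-type (log2 2.59 ± 0.24, adjusted p = 3.44e-05) and 3.55-fold in Rev-erbα-/- (log2 1.83 ± 0.23, adjusted p = 0.000672). At ZT8 the third Rev-erbα-/- mouse, at 103 CPM, stood above the other two, and without it the rise in Rev-erbα-/- livers was 2.17 on the log2 scale.

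Fasn (chr11:120805846-120824547, minus strand, mm10), the synthase itself, was at 668, 442 and 169 CPM in wild-type and 234, 241 and 407 CPM in Rev-erbα-/- livers at ZT8. By ZT20 the values were 1946, 1261 and 642 CPM and 1113, 1411 and 1438 CPM. Within each wild-type group the mice differed by more than 3-fold, and the lowest ZT20 liver was just below the highest ZT8 liver, while the Rev-erbα-/- groups were clearly separate. The change in wild-type, 3.01-fold, missed the threshold (log2 1.59 ± 0.54, adjusted p = 0.0617 in edgeR) but passed in DESeq2 (adjusted p = 0.00968), and the rise in Rev-erbα-/- livers was 4.49-fold (log2 2.17 ± 0.56, adjusted p = 0.0298). The 2 changes were not shown to differ, as their difference was 0.58 on the log2 scale with a 95% interval of -1.14 to 2.30. Leaving out any 1 Rev-erbα-/- ZT20 mouse, or Rev-erbα-/- ZT8 mouse 1 or 2, ended the call in Rev-erbα-/- livers, at log2 changes of 2.03 to 2.28. Without wild-type ZT8 mouse 1 or ZT20 mouse 3, the wild-type change was called, at 2.06 and 1.9.

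Elovl6 (chr3:129532355-129638495, plus strand, mm10), the elongase of palmitate, was at 135, 84.7 and 54.6 CPM in wild-type at ZT8 and 208, 170.2 and 82.5 CPM at ZT20. In Rev-erbα-/- livers it was at 69.2, 65.3 and 68.1 CPM and 180.2, 214 and 165 CPM. The wild-type groups overlapped and the Rev-erbα-/- groups did not. Elovl6 rose 2.76-fold in Rev-erbα-/- livers (log2 1.47 ± 0.39, adjusted p = 0.0337), and the wild-type change was 1.68-fold (log2 0.74 ± 0.38, adjusted p = 0.193). Without any 1 of the 6 Rev-erbα-/- mice, or without wild-type mouse 2 of either time, the Rev-erbα-/- call was lost, at log2 changes of 1.36 to 1.54, and with no filter on low counts it was lost as well (1.47, adjusted p = 0.0543 in edgeR). Without wild-type ZT20 mouse 3 the wild-type change was 1.03 and was called (adjusted p = 0.0495 in edgeR).

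Scd1 (chr19:44394455-44407879, minus strand, mm10), the desaturase that makes oleate, was at 3255, 2198 and 1043 CPM in wild-type and 2829.7, 2845 and 5953 CPM in Rev-erbα-/- livers at ZT8. The ZT20 livers had 15364, 13583 and 8979.6 CPM and 6233, 10199 and 9725 CPM. Each ZT20 liver was above each ZT8 liver of its genotype, but in Rev-erbα-/- the gap was small, from 5953 to 6233 CPM. Scd1 rose 5.84-fold in wild-type (log2 2.55 ± 0.48, adjusted p = 0.00393), and its Rev-erbα-/- change of 2.25-fold missed the threshold (log2 1.17 ± 0.46, adjusted p = 0.118). The difference between these changes was -1.38 on the log2 scale (95% interval -2.83 to 0.07, adjusted p = 0.28).

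Me1 (chr9:86581371-86695953, minus strand, mm10), the NADPH source, was at 106, 77.5 and 59.1 CPM in wild-type and 109.6, 100.4 and 108 CPM in Rev-erbα-/- livers at ZT8. At ZT20 it was at 282, 209 and 113 CPM and 156, 203 and 214 CPM. No liver at ZT20 lay within the ZT8 range of its genotype. Me1 rose 2.49-fold in wild-type (log2 1.32 ± 0.33, adjusted p = 0.0165), and its change in Rev-erbα-/- livers was 1.8-fold (log2 0.85 ± 0.32, adjusted p = 0.111). The wild-type call was lost without wild-type ZT8 mouse 2 (log2 1.29, adjusted p = 0.0567 in edgeR) or mouse 3 (1.14, adjusted p = 0.0603), and in a fit of only the compared groups (1.32, adjusted p = 0.095). The Rev-erbα-/- change was called without wild-type ZT20 mouse 3 (0.85, adjusted p = 0.0246 in edgeR), with only the compared groups (adjusted p = 0.00129) and in DESeq2 (adjusted p = 0.0481).

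Of the lipogenic cofactors, Thrsp (chr7:97412938-97417730, minus strand, mm10) had no change over time that passed the test. It was at 760.5, 578 and 402 CPM in wild-type and 1105, 1056 and 849 CPM in Rev-erbα-/- livers at ZT8, where all Rev-erbα-/- values were the higher ones. By ZT20 the values were 1414, 1062 and 515 CPM and 606, 927 and 1229 CPM, with wide and overlapping ranges. The change was 0.78 ± 0.40 on the log2 scale in wild-type (95% interval -0.12 to 1.68, adjusted p = 0.188) and -0.12 ± 0.40 in Rev-erbα-/- (95% interval -1.02 to 0.77, adjusted p = 0.871). The wild-type change was called only where ZT20 mouse 3 was left out, at 1.08 (adjusted p = 0.0395 in edgeR).

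Pnpla3 (chr15:84167837-84187236, plus strand, mm10) was low at ZT8, with 0.478, 0.947 and 0.813 CPM in wild-type and 0.935, 0.722 and 1.03 CPM in Rev-erbα-/- livers, that is 12 to 21 counts a library with a counting error of 21.8 to 28.9%, beside a coefficient of variation between mice of 32.4% in wild-type and 17.5% in Rev-erbα-/-. The ZT20 livers had 29.8, 21.2 and 7.34 CPM in wild-type and 9.65, 13.1 and 4.8 CPM in Rev-erbα-/-. The ZT20 livers were all far above the ZT8 livers, and the genotypes overlapped at both times. The rise was 26.4-fold in wild-type (log2 4.72 ± 0.67, adjusted p = 0.000897) and 10.2-fold in Rev-erbα-/- livers (log2 3.35 ± 0.67, adjusted p = 0.00987), the 16th and the 13th largest log2 increase of the 14488 genes. Of its exon bases, 6.78% are shared with the transcript Gm49513.

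**Figure D2:**
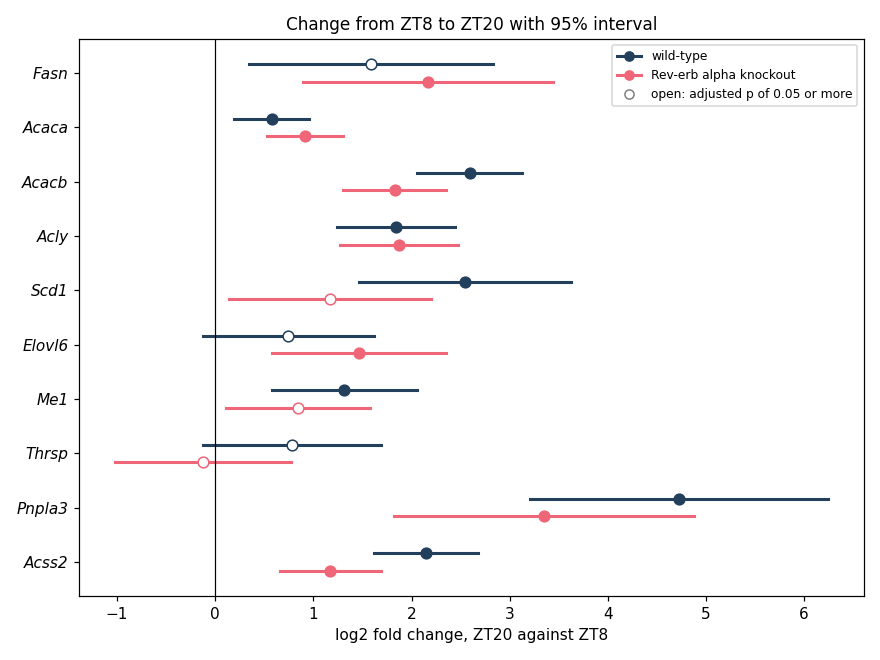
Points are log2 fold changes at ZT20 against ZT8 from the edgeR fit, with 95% intervals as bars, for wild-type (dark) and Rev-erbα-/- (light) livers; filled points passed the adjusted p of 0.05. Acly had nearly the same change in both genotypes, 1.84 and 1.87, while Pnpla3, Scd1, Acss2, Thrsp, Acacb and Me1 had smaller point estimates and Fasn, Elovl6 and Acaca larger ones in Rev-erbα-/- livers, with overlapping intervals for each.

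The wild-type ZT8 libraries with high Saa1 bear on the wild-type comparison. In wild-type at ZT8, 8 of the 10 transcripts were ordered mouse 1, 2, 3 from high to low, as were 25.2% of all tested genes. Saa1 was at 60.8, 4972 and 6489 CPM in these mice. In wild-type at ZT20 all 10 transcripts had the same order, with Saa1 at 96.8, 73.2 and 36.5 CPM. The part of the acute-phase libraries, wild-type ZT8 mice 2 and 3, in the wild-type changes was not tested beyond leaving them out. Without mice 2 and 3, Acacb, Acly, Acss2 and Pnpla3 were still called, with log2 changes of 2.62, 1.34, 1.76 and 5.32. Acaca (0.29, adjusted p = 0.481), Me1 (0.93, adjusted p = 0.288) and Scd1 (1.95, adjusted p = 0.0862) were no longer called by edgeR, with 1 wild-type ZT8 liver left that was taken to vary like the other groups.

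No transcript of the set passed the test between genotypes at either time. At ZT8, 0 of 10 differed between genotypes in edgeR, against 8.45% of all tested genes. In edgeR 2 of 10 had an unadjusted p under 0.05, beside 3404 of the 14488 tested genes. DESeq2, for which no share of all genes is at hand, called 2. These were Acaca, lower in Rev-erbα-/- livers, with a log2 difference of -0.52 ± 0.18 (adjusted p = 0.101 in edgeR and 0.0248 in DESeq2), and Acss2, higher by 0.58 ± 0.23 (adjusted p = 0.161 and 0.0409). Genotypes did not overlap at ZT8 for 3 of 10, Acaca, Acss2 and Thrsp, against 25.6% of all genes. Without the wild-type livers with high Saa1 the Acss2 difference was 0.19 and that of Acaca -0.81, neither of them called. Without wild-type ZT8 mouse 1 the Acss2 difference was 0.81 and was called by edgeR (adjusted p = 0.0391), and without wild-type ZT20 mouse 3, which enters only through the shared spread, Acaca was called (-0.53, adjusted p = 0.0438). For Scd1 and Thrsp the intervals reached far above 0, with 0.84 (-0.19 to 1.87) and 0.79 (-0.11 to 1.69) on the log2 scale, so that a higher level of either in Rev-erbα-/- livers at ZT8 was neither shown nor bounded tightly at this spread. Without the livers with high Saa1 these differences were 0.25 for Scd1 and 0.40 for Thrsp, while those of Fasn, Elovl6, Acly and Me1 went from -0.54, -0.44, -0.20 and 0.39 to -1.19, -1.01, -0.69 and 0.0011, none of them called. Among the cholangiocyte markers, Sox9 was higher in Rev-erbα-/- livers at ZT8 (2.3-fold, adjusted p = 0.00126 in edgeR), and the part of cell makeup in the genotype differences was not tested.

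At ZT20, 0 of 10 differed in edgeR, against 3.63% of all tested genes, and 0 in DESeq2. In edgeR 1 of 10 had an unadjusted p under 0.05, beside 2116 of the 14488 tested genes. The 1 was Acacb, at 259 ± 17.8 CPM in Rev-erbα-/- against 378 ± 77.4 CPM in wild-type (mean ± SD, n = 3), a log2 difference of -0.55 ± 0.23 with an adjusted p of 0.294 in edgeR. Acacb was also the 1 transcript of the 10 without overlap at ZT20, against 22.5% of all genes. Without Rev-erbα-/- ZT8 mouse 3, which changes the shared estimate of the spread, it was called (-0.55, adjusted p = 0.0311). Fasn had close means, at 1320.5 ± 181 and 1283 ± 652 CPM, but the interval of its log2 difference, -1.17 to 1.26, allows more than a 2-fold change either way. The narrowest interval at ZT20 was that of Acaca, -0.56 to 0.20.

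**Figure D3:**
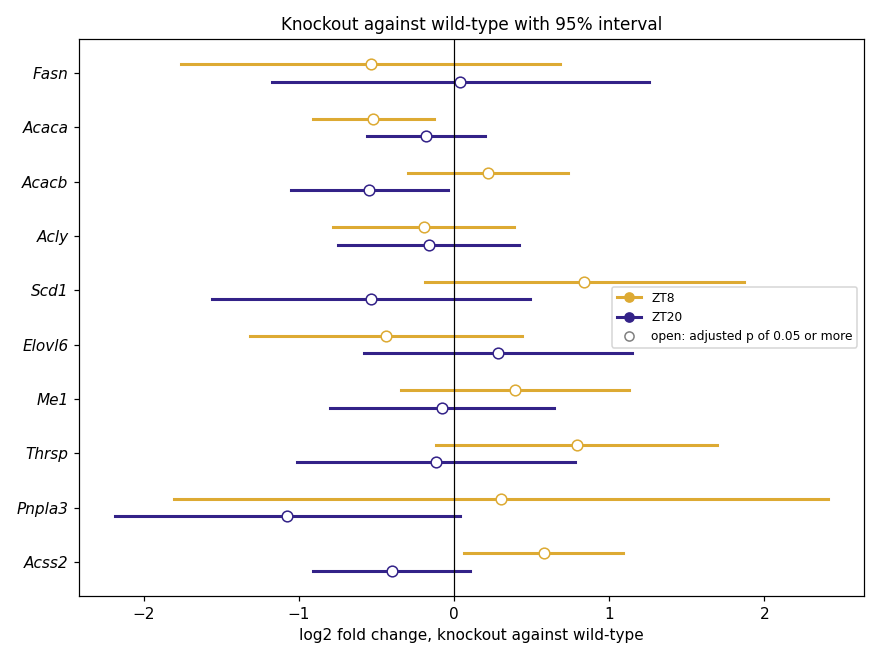
Points are log2 fold changes of Rev-erbα-/- against wild-type livers from the edgeR fit at ZT8 (yellow) and ZT20 (blue), with 95% intervals as bars; all points are open because none passed the adjusted p of 0.05. Acaca and Acss2 at ZT8 and Acacb at ZT20 have intervals that leave out 0, with unadjusted p-values of 0.0136, 0.0304 and 0.0365.

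The genotype effect itself differed between the times for 0 of 10 transcripts in edgeR, against 5.88% of all tested genes. In edgeR 2 of 10 had an unadjusted p under 0.05 (Acss2, -0.98, and Acacb, -0.76 on the log2 scale), beside 2844 of the 14488 tested genes. DESeq2, for which no share of all genes is at hand, called 1 (Acss2). The point estimates ran from -1.38 for Scd1 and -1.37 for Pnpla3 to 0.58 for Fasn and 0.72 for Elovl6. The median over the 10 was -0.62, beside -0.00105 over all tested genes. Scd1, Pnpla3, Acss2, Thrsp, Acacb and Me1 were below 0, and Acly, Acaca, Fasn and Elovl6 above it. The 95% intervals were wide, at -3.77 to 1.02 for Pnpla3, -2.18 to 0.37 for Thrsp, -1.50 to 0.56 for Me1 and -0.51 to 1.95 for Elovl6. Among the cell type markers, the genotype effects of Cd68 and Reln differed between the times (log2 0.88 and 0.54, adjusted p = 0.0118 and 0.044 in edgeR). The part of cell makeup was not tested.

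Much of the spread was shared by the transcripts of a mouse. In wild-type at ZT20, all 10 transcripts were highest in mouse 1, intermediate in mouse 2 and lowest in mouse 3, an order that 22.9% of all tested genes had. In wild-type at ZT8, 8 of 10 had the order 1, 2, 3 (25.2% of all genes), the exceptions being Acacb and Pnpla3. The Rev-erbα-/- groups had no common order. For the 9 transcripts with a mean of at least 10 CPM, the median coefficient of variation of wild-type livers was 30.9% at ZT8 and 30.3% at ZT20, and that of Rev-erbα-/- livers 13.5% and 13.3%. Over all genes at that level the wild-type values were 6.86% and 6% and the Rev-erbα-/- values 7.59% and 5.89%. Of the 9 transcripts, 9 lay above the median of all genes in wild-type at each time, and 5 at ZT8 and 8 at ZT20 in Rev-erbα-/- livers. The difference in spread was not tested. Replicate numbers are used here only to name the mice.

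**Figure D4:**
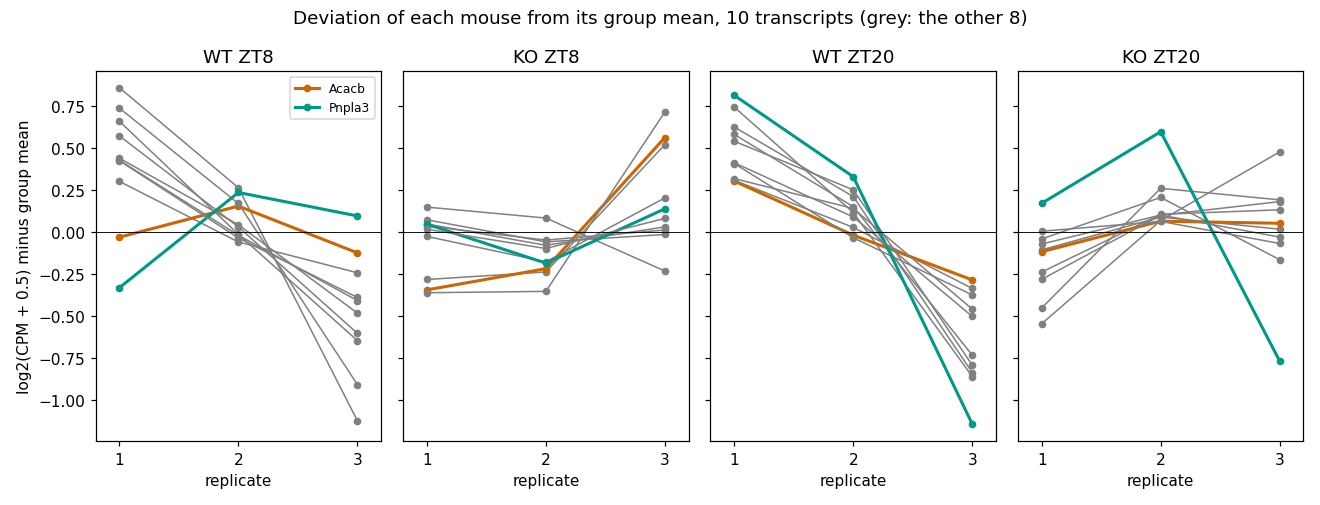
Each line is 1 transcript, and each point is its log2(CPM + 0.5) in a mouse minus the group mean, with 1 panel a group; lines only join the points of a transcript, as mice have no order. In wild-type ZT20 livers all lines run from above 0 in mouse 1 to below 0 in mouse 3, whereas Acacb and Pnpla3, drawn in colour, leave the bundle at ZT8.

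A ratio of transcripts within a library removes a difference between mice only as far as both transcripts share it by the same factor. The merged exon lengths set the size of such a ratio, but not its fold differences between groups. The ratio of Acacb to Acaca per kb of exon, singled out after its values were seen, was 1.75, 2.56 and 2.4 in wild-type livers at ZT8, where the Rev-erbα-/- livers had 2.82, 3.43 and 4.52. The wild-type livers at ZT20 had 8.83, 8.59 and 9.2, and the Rev-erbα-/- livers had 6.83, 6.76 and 7.05. All 4 groups were apart, with Rev-erbα-/- above wild-type at ZT8 and below at ZT20. The ratio was 1.6-fold higher in Rev-erbα-/- livers at ZT8 and 1.29-fold lower at ZT20, and it rose 4.02-fold over time in wild-type and 1.95-fold in Rev-erbα-/- as geometric means (SD within groups 0.227 on the log2 scale). With 3 mice against 3 an exact two-sided permutation test cannot go below p = 0.1. The ratio was chosen with its separation known, so such a test could not decide and no result of it is given. The wild-type ratio at ZT8 was lowest in mouse 1, the mouse with low Saa1.

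**Figure D5:**
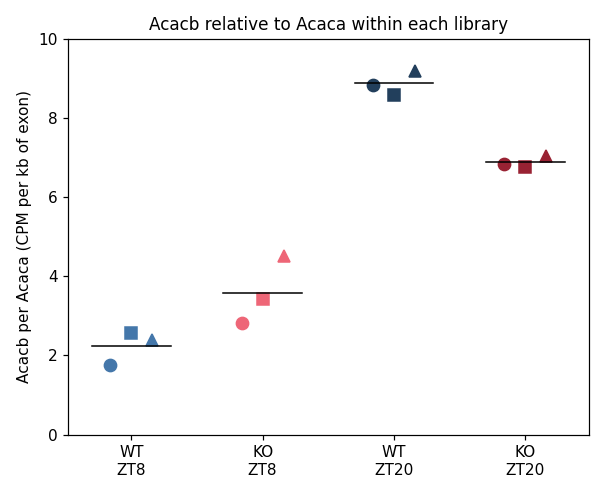
The ratio of Acacb to Acaca, both as CPM per kb of exon, is shown on a linear axis from 0 for each of the 12 livers, with symbols for mice 1, 2 and 3 and a black line at the group mean. The groups do not overlap, and the step from ZT8 to ZT20 is larger in wild-type (2.24 to 8.87) than in Rev-erbα-/- livers (3.59 to 6.88).

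The ratio of Scd1 to Fasn, also singled out after its values were seen, again had Rev-erbα-/- above wild-type at ZT8 and below at ZT20, but it moved in opposite directions over time. At ZT8 the wild-type livers had 10.9, 11.1 and 13.8, and the Rev-erbα-/- livers had 27.1, 26.4 and 32.7. At ZT20 these were 17.7, 24.1 and 31.3 for wild-type, and 12.5, 16.2 and 15.1 for Rev-erbα-/-. In wild-type at ZT20 the ratio was thus lowest in mouse 1 and highest in mouse 3, opposite to the order of the transcripts themselves. A difference between mice was therefore left in this ratio. Rev-erbα-/- livers were 2.41-fold higher at ZT8 and 1.63-fold lower at ZT20, without overlap at either time. From ZT8 to ZT20 the ratio was 2-fold higher in wild-type and 1.97-fold lower in Rev-erbα-/- livers. The wild-type ZT20 range overlapped that of Rev-erbα-/- at ZT8, and the Rev-erbα-/- ZT20 range that of wild-type at ZT8. Among the 45 ratios that the 10 transcripts allow, genotypes did not overlap for 18 at ZT8 and 17 at ZT20, against 30.8% and 25.5% of the 47956321 ratios among genes with at least 5 CPM on average. For 8 of the 45, genotypes were apart at both times in opposite directions, against 3.9% of all ratios. These 8 were Scd1 with Fasn, Acaca, Acly and Elovl6, Acss2 with Acly and Elovl6, Acacb with Acaca, and Acly with Elovl6. Ratios that share a transcript are not independent.

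Among 13 regulators of lipogenesis, changes went in both directions. In wild-type 3 were higher at ZT20 (Insig2, Insig1 and Mlxipl) and 3 lower (Nr1d2, Ppargc1b and Nr1h2), and in Rev-erbα-/- 1 was higher (Insig2) and 2 lower (Nr1d2 and Ppargc1b). Between genotypes 1 was higher and 1 lower in Rev-erbα-/- livers at ZT8, and 1 higher (Nr1d2) and 1 lower at ZT20. Srebf1, which encodes SREBP-1c, was at 471, 313 and 197 CPM in wild-type and 261, 253 and 332 CPM in Rev-erbα-/- livers at ZT8, and at 557, 419 and 354 and 464, 445 and 439 CPM at ZT20, with genotype differences of -0.21 and 0.02 on the log2 scale (adjusted p = 0.707 and 0.99). Insig2, whose protein holds SREBPs in the endoplasmic reticulum, was at 79.9, 65.4 and 55.2 CPM in wild-type and 190.0, 195 and 215 CPM in Rev-erbα-/- livers at ZT8, 2.99-fold higher (log2 1.58 ± 0.15, adjusted p = 3.95e-05). At ZT20 it was at 355 ± 4.92 and 331 ± 73.5 CPM, and the genotype effect differed between the times by -1.68 (adjusted p = 0.000436). Mlxipl, which encodes ChREBP, was lower in Rev-erbα-/- livers at ZT20, at 387 ± 18.8 against 520.2 ± 10.5 CPM (log2 -0.43 ± 0.08, adjusted p = 0.00546), and its genotype effect differed between the times by -0.47 (adjusted p = 0.0205). Ppargc1b, a coactivator of SREBPs, was lower in Rev-erbα-/- livers at ZT8, at 5.99 ± 1.31 against 11.4 ± 1.57 CPM (log2 -0.92 ± 0.15, adjusted p = 0.00166), with a difference between the times of 0.89 (adjusted p = 0.0311).

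The neighbouring steps of the pathway rose in part. Of 8 genes for NADPH and citrate supply, 4 rose in wild-type (G6pdx, Pgd, Idh1 and Tkt) and 3 in Rev-erbα-/- livers (Pgd, G6pdx and Idh1), and 0 fell in either. G6pdx, the first enzyme of the pentose phosphate pathway, was at 6.54 ± 1.18 CPM in Rev-erbα-/- and 11.7 ± 1.83 CPM in wild-type livers at ZT20, 1.78-fold lower (log2 -0.84 ± 0.15, adjusted p = 0.00452). Of 8 genes of sugar entry and breakdown, 3 rose and 1 fell in wild-type and 3 rose in Rev-erbα-/- livers. Pfkl, the liver phosphofructokinase, rose 1.49-fold in wild-type and 1.42-fold in Rev-erbα-/- livers (adjusted p = 0.000241 and 0.00131 in edgeR). Khk, the fructose kinase, rose 1.4-fold and 1.4-fold (adjusted p = 0.0297 and 0.0408). Pklr, the liver pyruvate kinase, rose 2.19-fold in Rev-erbα-/- (adjusted p = 0.0428), and the gene that fell in wild-type was Slc2a2, the glucose transporter GLUT2 (log2 -0.58, adjusted p = 0.0195).

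Of 10 genes that act on malonyl-CoA and acyl-CoA, 2 rose in wild-type (Acot1 and Prkaa2), and in Rev-erbα-/- 1 rose (Acot1) and 1 fell (Stk11). Acot1 has a close copy, Acot2, so that its counts are uncertain. Of 9 tested genes that use the newly made fatty acids, 4 rose (Elovl5, Acsl5, Gpam and Acsl1) and 2 fell (Dgat2 and Lpin1) in wild-type, and 3 rose (Gpam, Acsl5 and Elovl5) and 3 fell (Dgat2, Lpin1 and Fads2) in Rev-erbα-/- livers. Gpam, the first acyltransferase of glycerolipid synthesis, rose 2.6-fold in wild-type and 2.88-fold in Rev-erbα-/- (adjusted p = 0.000366 and 0.000425). Acsl1, an acyl-CoA synthetase, was higher in Rev-erbα-/- livers at ZT8 (log2 0.52 ± 0.11, adjusted p = 0.00828). Elovl5, an elongase of polyunsaturated fatty acids, was higher in Rev-erbα-/- livers at ZT8 (log2 0.52, adjusted p = 0.0367) and lower at ZT20 (log2 -0.62, adjusted p = 0.0264). This reversal passed the test of the difference (-1.15 ± 0.20, adjusted p = 0.00382). Lpin1, a phosphatidate phosphatase, fell by 1.34 on the log2 scale in wild-type and by 1.25 in Rev-erbα-/- livers (adjusted p = 0.00727 and 0.0154).

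Of the 14 paralogs of these genes, 9 were tested, of which 3 rose (Elovl3, Elovl1 and Scd2) and 2 fell (Pnpla2 and Me2) in wild-type and 3 rose (Elovl1, Elovl3 and Scd2) and 1 fell (Pnpla2) in Rev-erbα-/- livers. Elovl2, Elovl7, Acss3 and Mid1ip1 passed no test. Elovl3, an elongase of very long-chain fatty acids and a relative of Elovl6, was at 79.1, 63.8 and 49.9 CPM in wild-type and 216, 275 and 289 CPM in Rev-erbα-/- livers at ZT8, 4.04-fold higher without overlap (log2 2.02 ± 0.19, adjusted p = 5.66e-05), and at 869, 714 and 541 and 908, 812 and 880.4 CPM at ZT20. Its genotype effect differed between the times by -1.72 ± 0.26 (adjusted p = 0.00223). Scd2, the desaturase typical of brain, rose 1.39-fold in wild-type and 1.46-fold in Rev-erbα-/- livers from a group mean of 7.77 to 7.89 CPM. Pnpla2, which encodes adipose triglyceride lipase, moved the other way from Pnpla3, with a fall by 0.99 on the log2 scale in each genotype (adjusted p = 8.78e-05 and 0.000232). Scd3, Scd4, Me3, Acss1 and Pnpla5 had too few reads for a test. Reads that fit several Scd genes equally well are not in these counts.

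The genes whose pattern over the 12 livers was most like the mean of the 10 standardised transcripts were Gm3571 (Pearson r = 0.989), Rdh11 (0.978), Chrna4 (0.977), Dhcr7 (0.976) and Fdps (0.971). The r is a description over 12 livers that share groups and, in wild-type, the order of mice. Dhcr7 and Fdps encode enzymes of cholesterol synthesis and Rdh11 a retinol dehydrogenase, while Gm3571 is a processed pseudogene and uncertain, since its counts depend on how reads shared with its parent gene were placed. Of the 10 transcripts themselves, Acss2 (0.972) and Acly (0.971) were closest to their common pattern and Thrsp (0.56) was farthest from it. Each of the 10 is part of that mean, which raises its r, so these values do not compare with those of other genes.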

How the data were processed

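Poly(A) RNA of 12 livers had been sequenced on an Illumina HiSeq instrument with reads of up to 75 bases. The authors aligned them with TopHat to the mm10 genome, and HTSeq assigned them to gene symbols (union mode, minimum quality 10, strand ignored); versions of these tools are not given in the sources used here. They deposited raw counts for each library, one whole number per symbol and 5 summary lines, which were left out of library sizes. Of assigned, no-feature and ambiguous reads together, 8.5 to 9.95% were on no feature and 3.08 to 3.62% were ambiguous. The study tested its counts with DESeq2 1.6.3.

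From these counts, edgeR 4.0.16 in R 4.3.3 was used with filterByExpr, TMM scaling, 4 group means over 12 libraries and a robust quasi-likelihood fit (glmQLFTest), Benjamini-Hochberg over 14488 genes, threshold 0.05. CPM values are scaled to the reads on tested genes times the TMM factor (0.942 to 1.04), and fold changes come from the fit. At 17641809 to 26060192 assigned reads, the counting error (1 over the root of the count) was 0.174 to 4.23% for 9 of the 10 genes and 21.8 to 28.9% for Pnpla3 at ZT8. Replicates of a group differed by more than counting noise (a chi-square of 7.53 or more for each degree of freedom). The fit was tested on simulated data. Alternatives were DESeq2 1.42.0, its size factors in edgeR, no filter, at least 10 counts in every library, only the groups compared, a replicate block, a threshold of 0.01, and leaving out livers.

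The 10 genes and the lists of related genes and markers were chosen with earlier results of these data known. Named from a list were its genes past the threshold, by smallest adjusted p up to 4 a comparison, and the paralogs, with further called genes and Srebf1 added after their values were seen; the 5 genes most alike had the highest Pearson r with the mean profile among genes of at least 1 CPM. The labels do not say whether mice shared litters. Gene positions are from GENCODE vM21 (mm10). The values of 1 gene of the sugar entry list are not reported here.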

Additional observations from a re-analysis of the deposited data

Results flagged for a closer look

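The Acacb to Acaca ratio drew attention because every Rev-erbα-/- liver was above every wild-type liver at ZT8 and below every wild-type liver at ZT20. Its genotype difference was 0.67 on the log2 scale at ZT8 and -0.37 at ZT20, so that the later difference was lower by -1.04, and -1.2 to -0.86 when any 1 liver was left out. The Scd1 to Fasn ratio did the same, with 1.27 at ZT8, -0.71 at ZT20 and -1.97 between them (-2.19 to -1.77 with 1 liver left out). These differences between the times were not tested, and both ratios were singled out after their values were seen.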

How the results depend on the processing

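The time changes of Acacb, Acly, Acss2 and Pnpla3 were called in both genotypes under every alternative run. With DESeq2, 2 transcripts differed between genotypes at ZT8 (Acaca and Acss2), 1 had a genotype effect that differed between the times (Acss2), 0 differed at ZT20, and 8 changed with time in each genotype, with Fasn gained in wild-type and Me1 in Rev-erbα-/-. The share of all genes that DESeq2 called is not at hand to set beside these counts. With no filter on low counts, the calls of Acaca in wild-type and Elovl6 in Rev-erbα-/- were lost. With only the compared groups in the fit, Acaca and Me1 were lost in wild-type and Me1 was gained in Rev-erbα-/-. A threshold of 0.01 removed Acaca and Me1 in wild-type and Fasn and Elovl6 in Rev-erbα-/-. Without wild-type ZT8 mice 2 and 3, an alternative chosen with the acute-phase values of these libraries known, 4 transcripts changed with time in wild-type. Leaving out 1 liver at a time gave 0 to 1 calls for each genotype comparison and for their difference, 5 to 10 for time in wild-type (10 without wild-type ZT20 mouse 3) and 5 to 8 in Rev-erbα-/-. The replicate block gave 0, 0 and 0 calls for the genotype comparisons and their difference, and 7 and 6 for time, with Fasn lost in Rev-erbα-/-. The shares of all genes called in these alternatives are not at hand either. The counts therefore show only how the calls of these transcripts depend on the processing. The deviations of livers with the same number had r from -0.0954 to 0.102 over all genes and from -0.585 to 0.725 over the 10 transcripts. The labels do not say whether the numbers pair the mice, and these r values cannot tell. Under the block the ZT20 genotype differences of Me1 and Thrsp turned sign, to 0.000676 and 0.0025. Leaving out 1 liver also turned the sign of differences close to 0: at ZT8 Acacb ranged from -0.12 to 0.38 and Acly from -0.44 to 0.13; at ZT20 Fasn from -0.27 to 0.47, Acly from -0.32 to 0.0668, Elovl6 from -0.0128 to 0.56, Me1 from -0.36 to 0.24 and Thrsp from -0.42 to 0.22; for the difference between the times Acly ranged from -0.29 to 0.28, and over time in Rev-erbα-/- Thrsp from -0.39 to 0.103. The cause of these shifts was not tested. With 3 mice a group, the intervals of all 10 transcripts leave room for genotype differences of more than 1.5-fold at ZT8. At ZT20 this held for all but Acaca, with an interval of 0.677-fold to 1.15-fold.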
